A study of Capra hircus with 12 samples.

Results

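BMP and GDF signaling was followed through 10 genes chosen by name, not by a rule on measured values, but with earlier results known. They were the ligand genes BMP2, BMP4, BMP6, GDF5 and GDF6, the receptor genes BMPR1A and BMPR2, and the antagonist genes NOG, GREM1 and CHRDL1. Of these 10 symbols, 9 had an entry among the 28910 genes counted in goat temporomandibular joint (TMJ) cells, and CHRDL1 was not analysed here. All 9 are protein-coding genes in the RefSeq annotation of the goat genome ARS1.2.

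RNA sequencing covered 12 libraries of cultured goat TMJ cells, with 3 libraries in each of 4 groups. The groups were superficial layer cartilage (SLC) cells given IL-1β, SLC cells given IL-1β + LOXL2, middle layer cartilage (MLC) cells given IL-1β, and MLC cells given IL-1β + LOXL2. Every group had received IL-1β, an inflammatory cytokine used to model osteoarthritis, at 10 ng for 1 h. In the IL-1β + LOXL2 groups an adenovirus carrying LOXL2, a lysyl oxidase-like enzyme that modifies collagen, had been added overnight beforehand. The cells came from female goats aged 6 to 9 months and were at passage 3 to 5, so they had been frozen and expanded in culture before treatment. The flow cytometry methods name an empty adenovirus, but the culture methods of the sequenced cells list none, so whether cells given IL-1β alone received it is not known. LOXL2 and the adenovirus therefore cannot be told apart. Vehicle-treated cells were not analysed here. Nothing in the labels says whether the 3 libraries of a group were separate cultures or separate animals, so the p-values measure only the spread between these libraries. In bulk RNA, fewer cells of a type and less RNA per cell cannot be told apart.

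Bone morphogenetic proteins (BMPs) and growth differentiation factors (GDFs) are secreted ligands of the TGF-β family. They bring type I and type II serine/threonine kinase receptors together, and the type I receptor then phosphorylates SMAD1, SMAD5 and SMAD9, which enter the nucleus with SMAD4 and act on target genes such as those of the ID family. Antagonists bind the ligands outside the cell, and the pathway is known for its roles in joint formation, chondrocyte differentiation and cartilage upkeep.

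Library totals lay between 18751323 and 22123593 counts in the SLC IL-1β group and between 21080134 and 28931652 in the SLC IL-1β + LOXL2 group. MLC libraries held 14158607 to 15330697 counts with IL-1β and 14188227 to 19459045 with IL-1β + LOXL2. Levels are given as CPM, the counts of a gene scaled to 1e+06 counts of its library, with the library total adjusted by its TMM normalization factor. They are given in the order of libraries 1, 2 and 3 of a group. CPM takes no account of transcript length, so levels are compared between groups for 1 gene and not between genes.

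The treatment labels were checked against the LOXL2 gene itself. LOXL2 stood at 615, 618 and 633 CPM in the SLC IL-1β libraries and at 458, 546 and 561 CPM in the SLC IL-1β + LOXL2 libraries. In MLC it stood at 767, 876 and 817 CPM with IL-1β and at 815, 796 and 742 CPM with IL-1β + LOXL2. The LOXL2-labelled groups thus showed no higher level of the gene: their 3 SLC libraries lay below all 3 SLC libraries given IL-1β alone, and the MLC groups overlapped. Its log2 fold change was -0.27 (SE 0.11, edgeR adjusted p = 0.106) in SLC and -0.07 (SE 0.086, adjusted p = 0.595) in MLC. Whether transcripts of the adenoviral LOXL2 map to the goat gene was not tested. Below, LOXL2 groups and changes with LOXL2 are named by the label alone, since no rise of the gene was measured.

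The layer labels were checked against cell type markers. Of 10 chondrocyte markers 9 had an entry, and their summed level was 1378, 1429 and 1304 CPM in SLC with IL-1β, 1304, 749 and 961 CPM in SLC with IL-1β + LOXL2, 1917, 1768 and 1901 CPM in MLC with IL-1β, and 1873, 1622 and 1485 CPM in MLC with IL-1β + LOXL2. COL11A1 held the most counts of them in every library. COL2A1, the main collagen of cartilage, had 0 counts in 5 of 6 SLC libraries and 1 count in the other, against 10.4 to 20.8 CPM in MLC. COL9A1 likewise had 0 counts in 5 SLC libraries and 1 count in the other, and 11.5 to 19.4 CPM in MLC. SOX9, the chondrocyte transcription factor, stood at 13.9 to 22.1 CPM in SLC and 71.8 to 92.8 CPM in MLC. PRG4, the lubricin gene of joint surfaces, stood at 3.65 to 5.52 CPM in SLC and 4.77 to 7.25 CPM in MLC. The SLC cells thus had next to no COL2A1 and COL9A1. The 7 superficial fibrous markers summed to between 61291 and 72561 CPM over all 12 libraries, with COL1A1 holding the most counts. Between layers they went both ways with IL-1β. THY1 (-0.59) and COL1A2 (-0.34) were called lower in MLC, PRG4 (0.44), COL3A1 (0.70), ASPN (0.78) and POSTN (1.27) higher, and COL1A1 did not pass (-0.19, edgeR adjusted p = 0.0573).

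Markers of other cell types were mostly low. Among 4 measured macrophage and leukocyte genes CD14 had the most counts (47.2 to 133 CPM). The pan-leukocyte gene PTPRC had 0 counts in 10 libraries. Endothelial markers, led in counts by VWF, summed to 1.48 to 2.63 CPM in SLC and 3.30 to 4.29 CPM in MLC. CDH5 was at 0 in 10 libraries. Between layers with IL-1β, VWF (1.27, edgeR adjusted p = 0.000287) and CD14 (0.49, adjusted p = 0.00397) were called higher in MLC. CSF1R (-0.26) and CD68 (-0.07) did not pass. Summed levels were 0.355 to 0.729 CPM for 3 skeletal muscle markers and 1.80 to 3.98 CPM for 3 adipocyte markers. Hypertrophic chondrocyte and osteoblast markers, led in counts by SPP1, summed to 14.98 to 21.8 CPM in SLC and 100.3 to 107 CPM in MLC. These sums were mostly SPP1, and ALPL of the same list was low and on the other side, at 0.665 to 1.14 CPM in SLC and 0.103 to 0.563 CPM in MLC. Smooth muscle and pericyte markers, led in counts by ACTA2, summed to 1442 to 2085 CPM in SLC. In MLC they summed to 876 to 979 CPM with IL-1β and 1136 to 1473 CPM with IL-1β + LOXL2. The part of these markers in the results for the BMP and GDF genes was not tested.

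The first IL-1β + LOXL2 library of each layer lay nearer to the IL-1β group than to its own group. In SLC its distance, as the root mean square (RMS) difference in log2 CPM over genes, was 0.633 to its own group and 0.382 to the IL-1β group. In MLC these distances were 0.434 and 0.365. Each of the other 4 IL-1β + LOXL2 libraries lay nearer to its own group than to the IL-1β group. In SLC the distances were 0.576 against 0.869 for library 2 and 0.463 against 0.650 for library 3. In MLC they were 0.383 against 0.521 for library 2 and 0.408 against 0.584 for library 3. The first MLC library was thus little further from its own group than the third. The results of the LOXL2 comparisons are therefore given with and without these first libraries, a choice made after seeing the data. Because the library left out is the one nearest to the IL-1β group, larger differences and more calls follow from that choice, and the values without it are given as description. Leaving one out leaves 2 libraries in that group.

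Most of these genes differed between the layers. With IL-1β alone, BMP4 and GDF6 were higher in MLC, and BMP6, NOG, GREM1, BMPR2 and BMPR1A were higher in SLC. That made 7 of the 8 members tested past an adjusted p of 0.05 (edgeR quasi-likelihood test, Benjamini-Hochberg), where 46.9% of all 13965 genes tested passed. The same 7 did not overlap between the groups, against 55.8% of all genes. With IL-1β + LOXL2, 4 of 8 members passed (BMP4 and GDF6 higher in MLC, BMP6 and NOG higher in SLC) against 16.1% of 14085 genes, and 5 of 8 did not overlap against 35.0%. BMP6 passed the filter on low counts only through SLC and so had to differ, and its place in these counts carries no weight of its own. GDF5 was too low to be tested in either comparison, and BMP2 passed in neither.

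For the LOXL2 label, the question the study asked of these libraries, few members passed. In SLC 0 of 8 members and 0 of 14103 genes (0%) passed in edgeR, although 6108 genes had an unadjusted p under 0.05. DESeq2 called 4107 genes (31.9% of those it tested) and 2 members, BMPR1A and BMPR2, both lower with LOXL2. Groups did not overlap for the same 2 of 8 members, against 49.0% of all genes. In MLC 1 of 7 members, BMPR2, fell, against 21.6% of 13664 genes called, and 2 of 7 did not overlap (BMP2 and BMPR2, both lower), against 41.5%. Without the first IL-1β + LOXL2 library, 4 of 9 members were called in SLC (BMP2, BMPR1A, BMPR2 and GREM1, all lower), where 61.7% of 14334 genes were called. The same step in MLC gave 4 of 7 members (GDF6, BMPR1A, BMPR2 and GREM1, all lower), where 48.1% of 13838 genes were called.

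**Figure D1:**
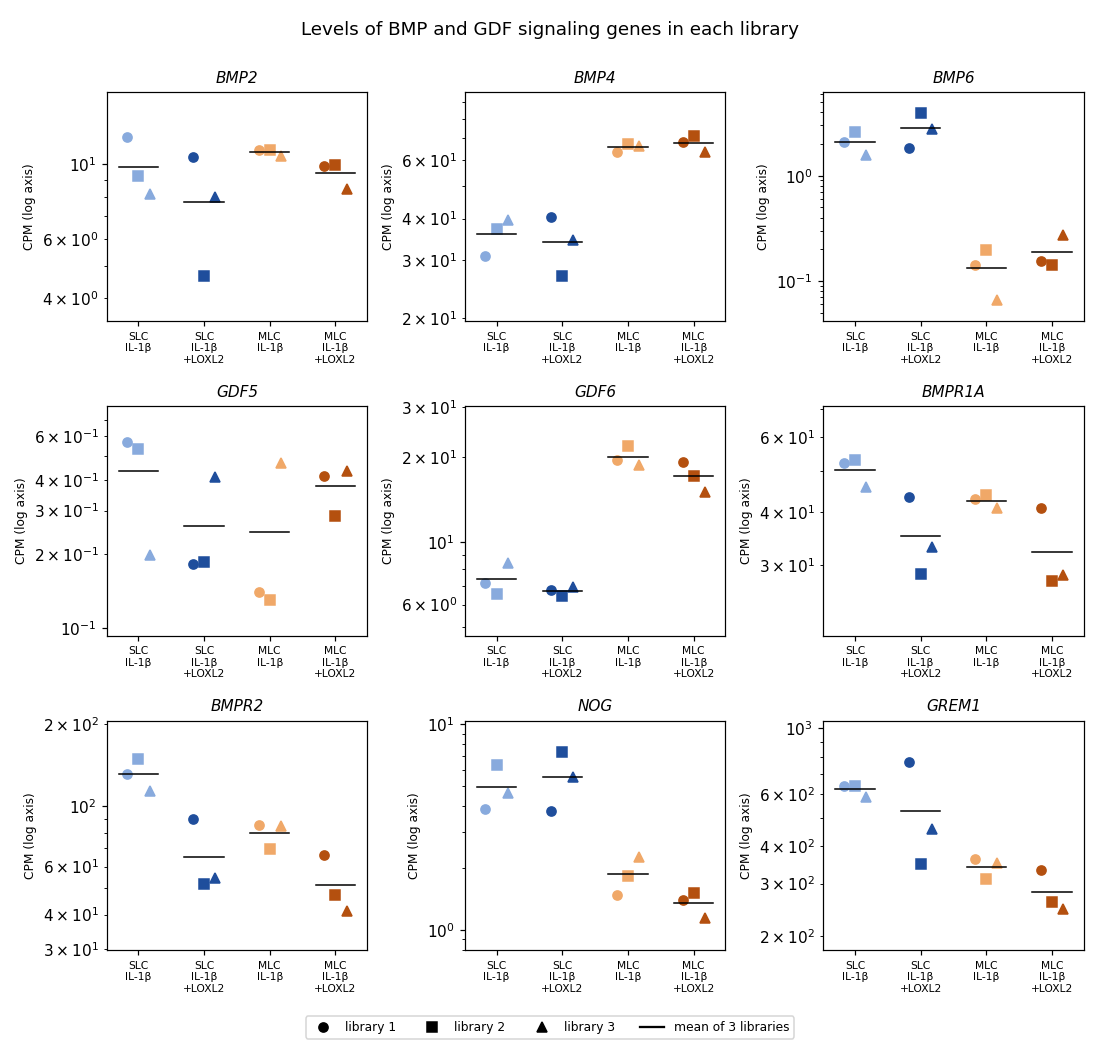
Level of each of the 9 measured BMP and GDF signaling genes in each of the 12 libraries, in CPM on a log axis, by group, with marker shape for library 1, 2 or 3 and a black line at the mean of 3 libraries. BMP4 and GDF6 lie higher in MLC, BMP6 and NOG lie higher in SLC, and BMPR2 falls from a mean of 79.7 to 51.5 CPM with LOXL2 in MLC.

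Among the ligands, BMP2 is a strong inducer of cartilage and bone. In SLC it stood at 12.0, 9.23 and 8.14 CPM with IL-1β and at 10.5, 4.67 and 7.98 CPM with IL-1β + LOXL2. In MLC the levels were 10.99, 10.99 and 10.6 CPM with IL-1β and 9.90, 9.94 and 8.46 CPM with IL-1β + LOXL2. The second SLC IL-1β + LOXL2 library was the lowest of all 12, and the MLC libraries labelled LOXL2 lay just under all 3 MLC libraries given IL-1β alone. Group means ran from MLC with IL-1β (10.9 ± 0.237, SD, n = 3) through SLC with IL-1β (9.80 ± 2.01) and MLC with IL-1β + LOXL2 (9.43 ± 0.846) to SLC with IL-1β + LOXL2 (7.73 ± 2.94), and each neighbouring pair in that order overlapped. For LOXL2 the log2 fold change of BMP2 was -0.36 in SLC (SE 0.30, edgeR adjusted p = 0.373) and -0.21 in MLC (SE 0.13, adjusted p = 0.268). Without the first SLC IL-1β + LOXL2 library the SLC value was -0.67 (SE 0.23, adjusted p = 0.0274).

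BMP4, which acts in early cartilage and limb patterning, was present in both layers and higher in MLC. SLC libraries held 30.7, 37.2 and 39.6 CPM with IL-1β and 40.3, 26.7 and 34.5 CPM with IL-1β + LOXL2. MLC libraries held 63.3, 67.1 and 66.3 CPM with IL-1β and 68.2, 70.8 and 63.6 CPM with IL-1β + LOXL2. All 6 MLC libraries lay above all 6 SLC libraries, and within each layer the treatments overlapped. Means were 65.6 ± 1.97 and 67.5 ± 3.65 CPM in MLC without and with LOXL2, and 35.8 ± 4.58 and 33.9 ± 6.81 CPM in SLC (SD, n = 3). MLC exceeded SLC by a log2 difference of 0.87 with IL-1β (SE 0.085, edgeR adjusted p = 1.11e-06) and 1.01 with IL-1β + LOXL2 (SE 0.17, adjusted p = 0.00744). With LOXL2 the log2 fold change was -0.10 in SLC (SE 0.18, adjusted p = 0.687) and 0.04 in MLC (SE 0.090, adjusted p = 0.771).

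GDF6, a ligand of the subfamily known for joint formation, followed the same order of layers. Its SLC levels were 7.18, 6.52 and 8.44 CPM with IL-1β and 6.75, 6.45 and 6.93 CPM with IL-1β + LOXL2. Its MLC levels were 19.4, 21.9 and 18.7 CPM with IL-1β and 19.1, 17.2 and 15.02 CPM with IL-1β + LOXL2. Every MLC library was above every SLC library, and the lowest MLC value, 15.02 CPM, came with LOXL2. The mean was 20.0 ± 1.69 CPM in MLC with IL-1β, 17.1 ± 2.06 with IL-1β + LOXL2, 7.38 ± 0.976 in SLC with IL-1β and 6.71 ± 0.244 with IL-1β + LOXL2 (SD, n = 3). The log2 difference of MLC from SLC was 1.45 with IL-1β (SE 0.12, edgeR adjusted p = 2.08e-07) and 1.36 with IL-1β + LOXL2 (SE 0.15, adjusted p = 0.00114). The LOXL2 comparison gave -0.15 in SLC (SE 0.15, adjusted p = 0.449) and -0.23 in MLC (SE 0.13, adjusted p = 0.199). Leaving out the first MLC IL-1β + LOXL2 library changed the MLC value to -0.32 (SE 0.12, adjusted p = 0.0349).

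BMP6, a ligand also known for its part in iron balance, was the reverse and had the widest spread of the 8 genes with an SD of log2 CPM. In SLC there were 40, 59 and 32 counts (2.07, 2.62 and 1.58 CPM) with IL-1β and 40, 106 and 61 counts (1.82, 3.93 and 2.78 CPM) with IL-1β + LOXL2. In MLC there were 2, 3 and 1 counts (0.141, 0.196 and 0.0665 CPM) with IL-1β and 3, 2 and 5 counts (0.155, 0.143 and 0.271 CPM) with IL-1β + LOXL2. BMP6 was thus close to the limit of detection in MLC, with no overlap between the layers. Summed over libraries and scaled to depth, SLC held 15.6 times the MLC level with IL-1β (131 against 6 counts, 95% interval 6.99 to 43.4) and 15.1 times with IL-1β + LOXL2 (207 against 10 counts, 8.07 to 32.0). These intervals cover counting error only. BMP6 passed the filter on low counts only through SLC, so it had to differ, and its fitted difference between layers appears only as a point in the figure. In SLC the log2 fold change with LOXL2 was 0.43 (SE 0.33, edgeR adjusted p = 0.323). It was 0.66 without the first SLC IL-1β + LOXL2 library (SE 0.27, adjusted p = 0.0503). MLC counts were too low for a test of LOXL2.

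GDF5, a marker of forming joints, was barely detected. Its counts were 11, 12 and 4 in SLC with IL-1β, 4, 5 and 9 in SLC with IL-1β + LOXL2, 2, 2 and 7 in MLC with IL-1β, and 8, 4 and 8 in MLC with IL-1β + LOXL2. No library exceeded 0.568 CPM, and all 4 groups overlapped. The ratio of summed counts after scaling was 0.585 for LOXL2 in SLC (95% interval 0.303 to 1.10) and 1.56 for LOXL2 in MLC (0.713 to 3.61). For MLC over SLC it was 0.569 with IL-1β (0.255 to 1.19) and 1.52 with IL-1β + LOXL2 (0.763 to 3.05). A difference in GDF5 was not detectable at this depth, since each interval includes 1.

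**Figure D2:**
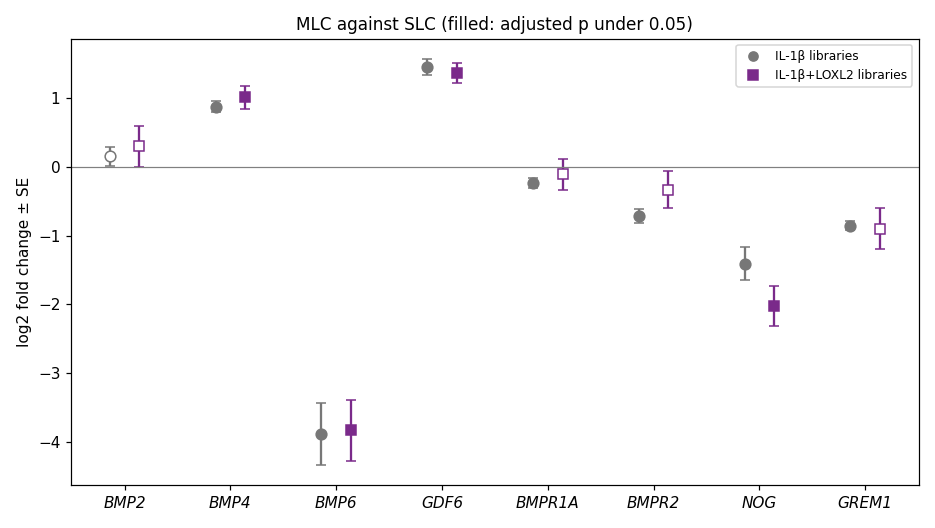
Difference between layers for the 8 tested genes, as log2 fold change of MLC against SLC ± SE, with circles for the IL-1β libraries and squares for the IL-1β + LOXL2 libraries (3 against 3 each, filled where the edgeR adjusted p was under 0.05). GDF6 lies at 1.45 and 1.36 and NOG at -1.41 and -2.03. BMP6 entered the fit through SLC alone, so it had to differ.

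Of the receptors, BMPR2 encodes the type II receptor that binds BMP ligands and activates the type I receptor. SLC libraries given IL-1β held 131, 149 and 113 CPM, and those given IL-1β + LOXL2 held 89.6, 51.8 and 54.6 CPM. MLC libraries given IL-1β held 85.2, 69.6 and 84.3 CPM, and those given IL-1β + LOXL2 held 66.3, 47.2 and 41.1 CPM. In both layers all 3 libraries labelled LOXL2 lay below all 3 given IL-1β alone, and in both the first LOXL2 library was the highest of its group. SLC with IL-1β (mean 131 ± 17.7 CPM, SD, n = 3) stood above the other groups without overlap, while MLC with IL-1β (79.7 ± 8.76), SLC with IL-1β + LOXL2 (65.3 ± 21.1) and MLC with IL-1β + LOXL2 (51.5 ± 13.1) overlapped with their neighbours in that order. BMPR2 fell by 0.63 on the log2 scale with LOXL2 in MLC (SE 0.16, 95% interval -0.97 to -0.29, edgeR adjusted p = 0.0229). In SLC the log2 fold change was -1.02 (SE 0.23, 95% interval -1.56 to -0.47, adjusted p = 0.0706), and it did not pass in edgeR, whereas DESeq2 gave an adjusted p of 0.00248. Omitting the first IL-1β + LOXL2 library, it was -1.33 in SLC (SE 0.12, adjusted p = 2.88e-05) and -0.85 in MLC (SE 0.10, adjusted p = 8.86e-06). The MLC call was lost without the first MLC IL-1β library (adjusted p = 0.0849), without the third (0.0984), without the second IL-1β + LOXL2 library (0.111), without the third (0.0608), and in a fit of all 12 libraries (0.174).

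BMPR1A encodes a type I receptor for BMP2 and BMP4 that is needed for cartilage growth. With IL-1β it stood at 52.3, 53.0 and 45.8 CPM in SLC and at 43.0, 43.8 and 40.8 CPM in MLC. With IL-1β + LOXL2 it stood at 43.5, 28.5 and 33.1 CPM in SLC and at 40.9, 27.5 and 28.4 CPM in MLC. The first LOXL2 library was again the highest of its group in each layer, and in MLC it alone reached the range of the IL-1β libraries. Means were 50.4 ± 3.96 and 42.5 ± 1.54 CPM in SLC and MLC with IL-1β, which did not overlap, and 35.0 ± 7.68 and 32.2 ± 7.49 CPM with IL-1β + LOXL2, which did (SD, n = 3). The log2 fold change with LOXL2 was -0.54 in SLC (SE 0.17, edgeR adjusted p = 0.0732, DESeq2 adjusted p = 0.0306) and -0.40 in MLC (SE 0.14, edgeR adjusted p = 0.0592, DESeq2 adjusted p = 0.0396). Without the first LOXL2 library these became -0.74 (SE 0.11, adjusted p = 0.00016) and -0.61 (SE 0.087, adjusted p = 4.47e-05).

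Between layers, BMPR2 was lower in MLC than in SLC by a log2 difference of -0.71 with IL-1β (SE 0.096, edgeR adjusted p = 2.79e-05). With IL-1β + LOXL2 the difference was -0.33 (SE 0.27, adjusted p = 0.463). BMPR1A differed by -0.24 with IL-1β (SE 0.073, adjusted p = 0.0147) and by -0.11 with IL-1β + LOXL2 (SE 0.22, adjusted p = 0.786). The BMPR1A call with IL-1β did not hold without the first SLC library (adjusted p = 0.0618), the second SLC library (0.0601) or the third MLC library (0.0709), nor in a fit of all 12 libraries (0.333), nor with the span trend removed (-0.15, adjusted p = 0.0838). Without the first SLC IL-1β + LOXL2 library the BMPR2 difference between layers under LOXL2 was -0.02 (SE 0.19, adjusted p = 0.945) and that of BMPR1A was 0.09 (SE 0.19, adjusted p = 0.731).

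Both receptor genes are long, and the LOXL2 libraries held fewer counts on long genes. BMPR2 spans 156491 bases of chromosome 2 (44895151 to 45051641) and BMPR1A 146208 bases of chromosome 28 (4172015 to 4318222). Genes over 100000 bases took 14.1%, 14.6% and 13.4% of counts in SLC with IL-1β, 12.2%, 7.78% and 9.19% in SLC with IL-1β + LOXL2, 13.1%, 12.7% and 13.2% in MLC with IL-1β, and 11.7%, 9.92% and 9.12% in MLC with IL-1β + LOXL2. The first LOXL2 library of each layer was the nearest to the IL-1β libraries in this share too. Taken across genes (genes do not count as independent replicates), LOXL2 log2 fold changes had a Spearman correlation with genomic span of -0.49 in SLC (14073 genes) and -0.49 in MLC (13637 genes). The median over genes longer than 100000 bases was -0.43 in SLC and -0.30 in MLC, where 620 of 1915 such genes (32.4%) were called lower and 19 higher. Of all 13664 genes tested in MLC, 1617 were called lower and 1341 higher. With each library's trend on span removed, the BMPR2 log2 fold change was -0.64 in SLC (SE 0.14, edgeR adjusted p = 0.0733) and -0.36 in MLC (SE 0.11, adjusted p = 0.0466), and that of BMPR1A was -0.15 in SLC (SE 0.091, adjusted p = 0.248) and -0.13 in MLC (SE 0.10, adjusted p = 0.408). The part of gene span in these falls was not tested otherwise. BMP6 is as long (144693 bases), and its SLC value with LOXL2 was 0.89 with the trend removed (SE 0.39, adjusted p = 0.129).

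**Figure D3:**
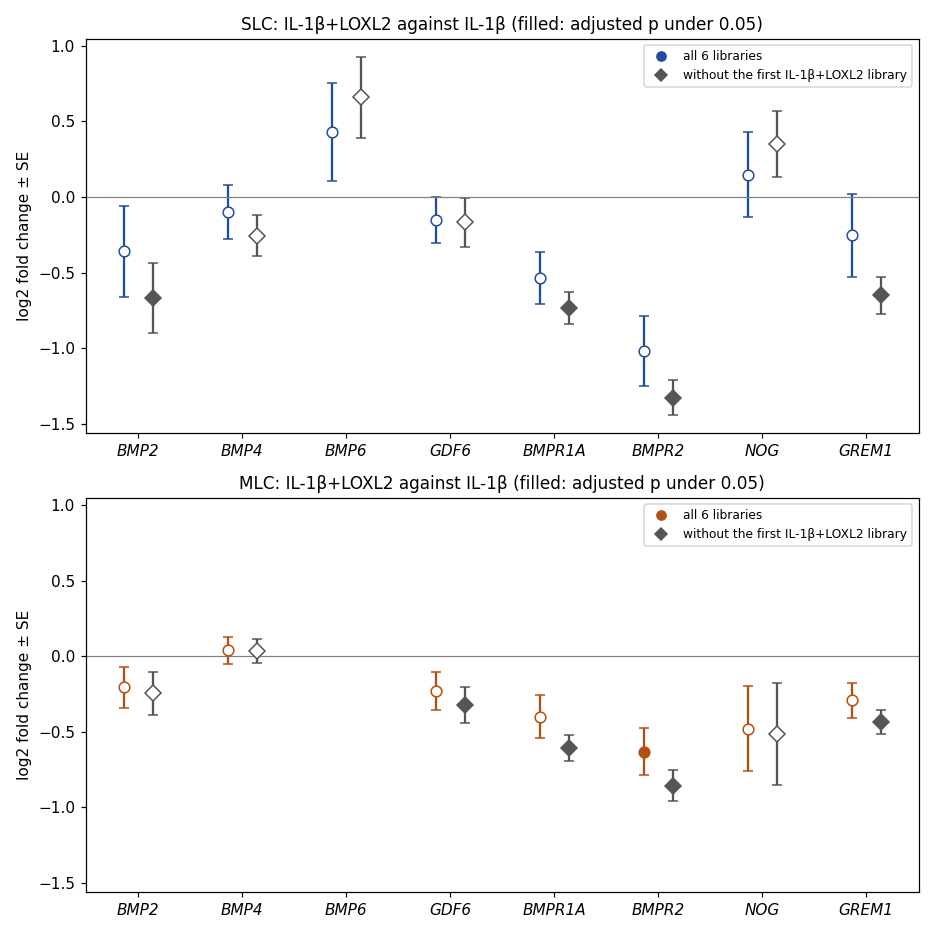
Change with LOXL2 in SLC (top) and MLC (bottom) for the genes tested, as log2 fold change of IL-1β + LOXL2 against IL-1β ± SE, with circles for all 6 libraries of the layer and grey diamonds without its first IL-1β + LOXL2 library, filled where the edgeR adjusted p was under 0.05. BMPR2 lies at -1.02 and -1.33 in SLC and at -0.63 and -0.85 in MLC, and BMP4 lies near 0 in MLC (0.04).

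Among the antagonists, NOG encodes noggin, which binds BMP ligands and keeps them from their receptors. It had 75, 142 and 94 counts (3.87, 6.30 and 4.64 CPM) in SLC with IL-1β and 83, 197 and 121 counts (3.79, 7.30 and 5.52 CPM) with IL-1β + LOXL2. In MLC it had 21, 28 and 34 counts (1.48, 1.83 and 2.26 CPM) with IL-1β and 27, 21 and 21 counts (1.39, 1.502 and 1.14 CPM) with IL-1β + LOXL2. All SLC libraries lay above all MLC libraries, and treatments overlapped within each layer. Mean levels were 5.53 ± 1.76 and 4.94 ± 1.24 CPM in SLC with and without LOXL2, and 1.34 ± 0.187 and 1.86 ± 0.392 CPM in MLC (SD, n = 3). NOG was lower in MLC by a log2 difference of -1.41 with IL-1β (SE 0.24, edgeR adjusted p = 0.00021) and -2.03 with IL-1β + LOXL2 (SE 0.29, adjusted p = 0.00345). With LOXL2 its log2 fold change was 0.15 in SLC (SE 0.28, adjusted p = 0.696) and -0.48 in MLC (SE 0.28, adjusted p = 0.222). The SLC value turned to -0.20 with the span trend removed (SE 0.23, adjusted p = 0.521).

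GREM1 encodes gremlin 1, an antagonist of BMP2 and BMP4 with a known role in limiting chondrocyte hypertrophy. SLC libraries held 639, 637 and 588 CPM with IL-1β and 769.9, 349 and 456 CPM with IL-1β + LOXL2. MLC libraries held 363, 312 and 352 CPM with IL-1β and 333, 261 and 247 CPM with IL-1β + LOXL2. The first SLC IL-1β + LOXL2 library was the highest of all 12 and the other 2 of its group lay below every SLC IL-1β library, so that group ranged more widely than any other. Means were 621 ± 29.1 CPM in SLC with IL-1β, 525 ± 219 with IL-1β + LOXL2, 342 ± 27.1 in MLC with IL-1β and 280.3 ± 46.4 with IL-1β + LOXL2 (SD, n = 3), and neighbours in this order overlapped. MLC was lower than SLC by a log2 difference of -0.86 with IL-1β (SE 0.069, edgeR adjusted p = 1.74e-07). With IL-1β + LOXL2 the difference was -0.90 (SE 0.30, adjusted p = 0.0841), with no overlap. It passed without the first SLC IL-1β + LOXL2 library (-0.50, adjusted p = 0.0448), without the second (-1.12, adjusted p = 0.0163), with DESeq2 (adjusted p = 0.0165) and in a fit of all 12 libraries (adjusted p = 0.0095). It did not pass with DESeq2's size factors, with no filter, or with the span trend removed. Nor did it pass without the third SLC IL-1β + LOXL2 library, or with each MLC IL-1β + LOXL2 library left out in turn. For LOXL2 the log2 fold change was -0.25 in SLC (SE 0.27, adjusted p = 0.483) and -0.29 in MLC (SE 0.12, adjusted p = 0.0843). Leaving out the first LOXL2 library moved these to -0.65 (SE 0.12, adjusted p = 0.000733) and -0.43 (SE 0.079, adjusted p = 0.00031).

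The IL-1β + LOXL2 libraries of the layers were also tested as pairs, because residuals of libraries with the same number correlated between layers (Pearson r of 0.61, 0.21 and 0.17 across genes for libraries 1, 2 and 3). MLC library 3 and SLC library 2 gave 0.45, above the same-number values for libraries 2 and 3, so pairing by number rests on library 1. With the library number as a block, 5 of 8 members passed, against 27.6% of 14085 genes, and GREM1 joined BMP4, BMP6, GDF6 and NOG with a log2 difference of -0.83 (SE 0.16, edgeR adjusted p = 0.00547). Without the first library of both layers the same 5 passed, against 31.4% of 14162 genes, with GREM1 at -0.64 (adjusted p = 0.00546). Both counts include BMP6, which passed the filter on low counts only through SLC and so had to differ.

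Whether the change under the LOXL2 label differed between the layers was tested as an interaction over all 12 libraries. In edgeR 0 of 8 members and 0 of 14534 genes (0%) passed, with 328 genes at an unadjusted p under 0.05, and DESeq2 also called 0 (334 unadjusted). The unadjusted count was 3987 without the first SLC IL-1β + LOXL2 library and 2954 without the first of both layers, with 1 and 2 genes called. For BMPR2 the difference of the log2 fold changes, MLC minus SLC, was 0.38 (SE 0.31, 95% interval -0.29 to 1.05, edgeR adjusted p = 0.959). NOG gave -0.64 (SE 0.41, 95% interval -1.53 to 0.24, adjusted p = 0.959). The other 6 lay between -0.09 for GDF6 and 0.15 for BMP2. These intervals do not show that the layers were alike in this. The LOXL2 and layer comparisons share libraries, so their values are not independent of each other.

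Positions of the remaining members on ARS1.2 are, on chromosome 13, 48691312 to 48701740 for BMP2 and 64252168 to 64256768 for GDF5. BMP4 (36677847 to 36684966) and GREM1 (73061690 to 73077023) both lie on chromosome 10. BMP6 lies on chromosome 23 (2723454 to 2868146), GDF6 on chromosome 14 (14139236 to 14158439) and NOG on chromosome 19 (6996004 to 6997988). NOG, the shortest, spans 1985 bases.

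Of the 8 members in the fit of all 12 libraries, the 4 that varied most were BMP6, NOG, GDF6 and BMPR2, with SDs of log2 CPM of 1.74, 0.92, 0.74 and 0.59 against a median of 0.35 over 14534 genes. For each, the 3 genes with the most similar profile were those with the smallest RMS difference in centred log2 CPM. BMP6 was followed most closely by MFAP5 (RMS 0.36), HSPB7 (0.36) and SERPINF1 (0.37). It entered this fit through SLC and was close to the limit of detection in MLC. Its SD and profile therefore hold mostly the gap between the layers. NOG was followed by FAM169B (0.28), TWIST2 (0.29) and FAM124A (0.31). GDF6 ran closest to MTUS1 (0.13), CENPL (0.14) and PDPN (0.15). BMPR2 ran closest to RNF213 (0.07) and ARHGAP5 (0.09), and its other gene is not reported here.

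The rest of the pathway was described by lists, beside a median log2 fold change over all genes tested of 0.01 in SLC and 0.01 in MLC for LOXL2, and of -0.01 with IL-1β and -0.03 with IL-1β + LOXL2 for MLC against SLC. The lists hold 16 other ligands, 10 other receptors and co-receptors, 18 other extracellular modulators (15 with an entry), 14 SMADs and their regulators, and 16 target genes. SMAD9, SMAD6, SMAD7 and BAMBI are both regulators and targets.

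With LOXL2, 12 of 14 SMADs and regulators tested had negative values in MLC (median -0.29) and 4 fell, where 21.6% of all genes were called: SMAD5 (-0.52, edgeR adjusted p = 0.0283) and SMAD9 (-0.58, 0.0416), which carry the signal, SMURF2 (-0.35, 0.0429), a ubiquitin ligase for SMADs, and LEMD3 (-0.70, 0.019), a nuclear membrane protein that binds SMADs. In SLC 13 of 14 were negative (median -0.43) and 0 were called in edgeR, against 5 in DESeq2, which called 31.9% of all genes there. SMAD5 stood at 85.1, 90.7 and 77.8 CPM in SLC with IL-1β and at 70.7, 41.9 and 48.6 CPM with IL-1β + LOXL2, and in MLC at 72.5, 62.2 and 65.4 CPM and at 59.0, 41.1 and 39.5 CPM. As for BMPR2, the first LOXL2 library was the highest of its group and still below the IL-1β libraries in both layers. Without the first library, 11 of 14 were called lower in SLC, where 61.7% of all genes were called, and 10 of 14 in MLC, where 48.1% were. With the span trend removed, 12 of 14 were negative in SLC (median -0.19) and 13 of 14 in MLC (median -0.13). In MLC 1 of the 14 was then called, where 2004 of 13664 genes were. The 4 calls in MLC were lost without the first or the third MLC IL-1β library or the second IL-1β + LOXL2 library, where 0 genes passed in edgeR (3971, 3782 and 3677 at an unadjusted p under 0.05). They were also lost with all 12 libraries in the fit, where 0 genes passed. Without the second MLC IL-1β library 2 calls were left (822 of 13824 genes called). Without the third MLC IL-1β + LOXL2 library 1 call was left (474 of 13834 genes called).

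With all 6 MLC libraries, 1 of 5 other ligands, 1 of 8 receptors, 3 of 10 modulators and 1 of 15 targets passed with LOXL2. Of all genes 21.6% were called there. In SLC 0 genes of these lists were called in edgeR, where 0 of 14103 genes were. The medians were 0.23 over 6 ligands, -0.13 over 9 receptors, -0.00 over 9 modulators and 0.02 over 15 targets. DESeq2 called 2 ligands higher, and 1 receptor, 2 modulators and 1 target lower, where it called 31.9% of all genes. In MLC the medians were -0.03 over 5 ligands, 0.01 over 8 receptors, -0.14 over 10 modulators and -0.03 over 15 targets. GDF1 was called higher there (0.83, edgeR adjusted p = 0.0353), although its counts may include reads of an overlapping gene. Calls in the other direction were NEO1 (-0.41, adjusted p = 0.0455), a co-receptor, and 3 modulators: TWSG1 (-0.36, adjusted p = 0.0427) and CRIM1 (-0.44, adjusted p = 0.0253), which bind BMPs, and TLL1 (-0.66, adjusted p = 0.0257), a protease that cleaves chordin. The calls of GDF1, NEO1 and these modulators were lost without any 1 of the 3 MLC IL-1β libraries, without the second or the third IL-1β + LOXL2 library, and with all 12 libraries in the fit. With the span trend removed, 1 modulator was called in MLC and no ligand, receptor or target, where 2004 of 13664 genes were called. Among the targets SMAD9 alone was called. With all libraries of a layer, none of the 4 ID genes passed: the log2 fold change of ID1 was 0.32 in SLC (adjusted p = 0.267) and 0.04 in MLC (0.890), and that of ID3 0.25 in SLC (0.473) and 0.14 in MLC (0.337). ID2 gave 0.02 in SLC and -0.11 in MLC, and ID4 gave -0.26 in SLC and -0.08 in MLC. Without the first SLC IL-1β + LOXL2 library, 2 of 6 ligands were called higher and 1 lower, and 4 of 9 receptors lower. Of 9 modulators 3 were higher and 4 lower, and of 15 targets 4 higher and 2 lower, beside the 61.7% of all genes. In MLC the same step, beside 48.1%, gave 2 of 5 ligands higher, 1 of 8 receptors higher and 2 lower, 4 of 10 modulators lower and 1 of 15 targets lower.

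Between layers with IL-1β, 46.9% of all genes were called, 3169 lower in MLC and 3379 higher. Of 9 other receptors and co-receptors, 8 had lower values in MLC and 5 were called lower (median -0.48). BMPR1B, the type I receptor that GDF5 prefers, stood at 6.56, 6.17 and 6.91 CPM in SLC and at 0.423, 0.393 and 0.399 CPM in MLC, where each library had 6 counts. BMPR1B and ACVRL1 are among the 5, but both passed the filter only through SLC and so had to differ. The other 3 were NEO1 (-0.69), RGMB (-0.52) and ENG (-0.48). With IL-1β + LOXL2, BMPR1B, again through SLC alone, and ACVRL1 (-1.54, adjusted p = 0.0234) were called, where 16.1% of all genes were. The ACVRL1 call was lost without the third SLC library or the first or the third MLC library of that treatment. The replicate block gave 5 lower, where 27.6% of all genes were called.

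Of 15 target genes tested with IL-1β, 8 were called lower in MLC and 2 higher (median -0.47), where 46.9% of all genes were called. ID2, ID3 and ID4, inhibitors of differentiation, differed by -0.87, -0.78 and -0.73, and ID1 did not pass (-0.15, edgeR adjusted p = 0.481). DLX5, a homeobox gene of bone-forming cells, stood at 25.3, 24.8 and 25.1 CPM in SLC and at 0.563, 1.505 and 0.665 CPM in MLC. With IL-1β it passed the filter only through SLC and so had to differ. ATOH8 (-1.49), RUNX2 (-0.55), SMAD6 (-0.50) and SMAD9 (-0.47) were the other 4. BAMBI, a pseudoreceptor that blocks signaling, was higher in MLC at 17.5, 25.1 and 19.2 CPM against 5.94, 7.72 and 8.74 CPM in SLC (1.46, adjusted p = 2.47e-06), as was MSX1 (1.19). With IL-1β + LOXL2, ID2 (-0.999), DLX5 (-4.76) and ATOH8 (-1.90) were called lower in MLC, and BAMBI (1.55) and MSX1 (1.02) higher. With the replicate block, where 27.6% of all genes were called against 16.1% without it, 6 targets were lower and 2 higher.

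For the lists that follow, the share of all genes called was 46.9% with IL-1β, 16.1% with IL-1β + LOXL2, and 27.6% with the block there. SMADs and regulators had 7 called lower in MLC and 2 higher of 14 with IL-1β (median -0.17). SMAD1 (-0.63), SMAD5 (-0.34), SMAD9 (-0.47), the shared partner SMAD4 (-0.24), and the inhibitors SMAD6 (-0.50), SKIL (-0.55) and TOB1 (-0.53) were lower, and SMURF2 (0.39) and BAMBI (1.46) higher. With all 12 libraries in the fit, these became 4 lower and 1 higher, where 3715 of 14534 genes were called. With IL-1β + LOXL2, BAMBI alone of the 14 was called (median -0.10), and the block gave 2 higher and 3 lower. Of 10 extracellular modulators, 4 were called higher in MLC with IL-1β and 2 lower (median 0.09). TLL1 (1.02), FSTL3 (0.77), TLL2 (0.47) and BMPER, which passed the filter only through MLC, were higher in MLC, and CHRD, which encodes the antagonist chordin (-0.83), and FSTL1 (-0.25) were lower. CHRD stood at 8.73, 9.36 and 9.08 CPM in SLC and at 4.93, 4.97 and 5.39 CPM in MLC, so that it lay on the same side as NOG and GREM1. With IL-1β + LOXL2, BMPER (through MLC alone), TLL1 (1.31) and FSTL3 (0.71) were called higher and CHRD (-1.04) lower (median 0.27), and the block gave 5 higher and 1 lower. The calls of higher modulators were lost without the third SLC library or the second or the third MLC library, and 1 was left without the first MLC library. Of 5 other ligands, GDF10 (0.69) and GDF15 (0.31) were called higher and GDF11 (-0.32) lower with IL-1β (median -0.08), and 0 with IL-1β + LOXL2 (median -0.18), where the replicate block gave 1 lower. Without the third MLC IL-1β library none of these 3 ligand calls held, and leaving out any other library but the first of SLC lost at least 1 of them. In the interaction 0 genes of any list were called in edgeR.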

How the data were processed

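RNA of 12 goat TMJ cell libraries was analysed. For each layer the authors deposited a table of raw counts, as reads per gene, made, per the submitters' notes, with HISAT2 on ARS1.2 and featureCounts. The HISAT2 version is not given, nor are the settings for strand and multi-mapping reads. RNA was extracted with RNeasy according to the labels but with TRIzol according to the paper. Of 28910 entries per table, 1783 share a name with another and 26 have names turned into dates, and these were kept apart. CHRDL1 was not analysed here. The members and lists were chosen with earlier results of these data known.

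Tests used edgeR 4.0.16 under R 4.3.3 with TMM factors and the quasi-likelihood F test (glmQLFit, glmQLFTest), after filterByExpr at min.count 10 and min.total.count 15, on the 6 libraries of each comparison, or in all 12 for the interaction, with Benjamini-Hochberg adjustment over all genes tested and a threshold of 0.05. The SE of a log2 fold change was derived from it and F, as their ratio with F under a square root. CPM used TMM factors over 12 libraries, and groups were called not overlapping on CPM. Ratios of summed counts have 95% binomial intervals (exact Clopper-Pearson). Profiles were compared as centred log2 CPM with a prior count of 2. Coordinates and spans are RefSeq's.

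Members were always named. In the lists, genes past the threshold were named, or else those with the largest counts and changes. The ID genes and per-library values of list genes were picked after their values were seen.

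Alternatives were DESeq2's size factors, no filter, DESeq2 1.42.0's Wald test, the library number as a block, removal of each library's lowess trend (smoother span 0.3) on genomic span, all 12 libraries in one fit, and each library left out. Leaving out the first IL-1β + LOXL2 library of both layers together was added after seeing the data. Pairing was checked by correlating residuals of libraries with the same number. The procedure was also run on simulated data, and the outcome is not given here.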

Additional observations from a re-analysis of the deposited data

How the results depend on the processing

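Calls for LOXL2 depended on the libraries and on the test, and the cause was not tested. In SLC 0 genes passed in edgeR, against 4107 with DESeq2, 5965 with all 12 libraries in the fit and 0 to 8849 when 1 library was left out, the highest without the first IL-1β + LOXL2 library. Members called there were 0, against 2, 2 and 0 to 4. In MLC the 2958 genes became 0 with all 12 libraries (3728 at an unadjusted p under 0.05) and 0 to 6653 with 1 library left out. It was 0 without IL-1β library 1 or 3 or LOXL2 library 2, 474 without LOXL2 library 3, 822 without IL-1β library 2 and 6653 without LOXL2 library 1. The 1 member called in MLC became 2 without a filter, where 3655 of 19942 genes were called. The count was 2 with DESeq2 (3270 of 12015 genes) and 3 with the block (4053 of 13664 genes). With all 12 libraries it was 0, and with 1 library left out 0 to 4.

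Between layers with IL-1β, the 6548 genes became 3715 of 14534 with all 12 libraries, the fewest, and 7022 of 20226 with no filter, the most. Beside these, 6 or 7 members passed in every setting. With IL-1β + LOXL2, the 2268 genes became 3887 with the block, 4199 with all 12 libraries, 1140 to 4679 with 1 library left out (lowest without the second MLC library, highest without the first SLC library) and 4453 without the first library of both layers, a choice made after seeing the data. Members called were 4 or 5. The member counts of both layer comparisons include BMP6, which had to differ. The interaction called 0 genes, 0 to 1 with 1 library left out and 2 without both first libraries.

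None of the values that changed sign was called. With the span trend removed, BMP4 in MLC with LOXL2 was -0.112, NOG in SLC -0.204 and the BMP6 interaction -0.137. The GREM1 interaction was 0.024 with the block. Without both first libraries the interaction was 0.195 for GREM1 and -0.034 for BMP6. With 1 library left out, ranges were -0.255 to 0.052 for BMP4 and -0.103 to 0.359 for NOG in SLC with LOXL2, and -0.314 to 0.092 for BMPR1A between layers with IL-1β + LOXL2. For the interaction they were -0.122 to 0.439 for BMP2, -0.019 to 0.272 for BMP4, -0.304 to 0.414 for BMP6, -0.081 to 0.316 for BMPR1A and -0.268 to 0.339 for GREM1.

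Residuals of libraries with the same number correlated at 0.030, -0.227 and 0.124 for LOXL2 in SLC, 0.081, 0.110 and -0.052 for LOXL2 in MLC, and -0.047, -0.089 and -0.046 between layers with IL-1β, which were not treated as paired.

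Of the member values under other settings, 471 kept their direction and side of the threshold, 21 gained a call, 10 lost one and 22 changed sign. Of those for other pathway genes called, 525 kept their call and 86 lost it. The block changed no member's call other than BMPR1A (-0.42, adjusted p = 0.0101) and GREM1 (-0.30, adjusted p = 0.0294) in MLC with LOXL2, and GREM1 between layers with IL-1β + LOXL2 (-0.83, adjusted p = 0.00547). Levels per kilobase, and the alternative using the median transcript length, were not run, since the reference holds no transcript lengths. With 3 libraries a group, at times 2, small changes can be missed, and genes with few counts (BMP6 in MLC, GDF5) limit the precision of ratios. Depth was 14158607 to 28931652 counts.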
